A study of Mus musculus with 12 samples.

Results

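The genes described here are the vascular endothelial growth factor (VEGF) family and its close partners, taken as 10 named genes out of the 21556 genes in the count table. They are the ligand genes Vegfa, Vegfb, Vegfc, Vegfd and Pgf, the receptor gene Flt1, the co-receptor genes Nrp1 and Nrp2, and the angiopoietin genes Angpt1 and Angpt2. They were chosen by name, with the measured count changes of these genes between control and TGF-β2 libraries already known. Their response to TGF-β2 is therefore given as a description and not as independent evidence. RNA was sequenced from primary fibroblasts of abdominal mouse skin, expanded and frozen before use, in 4 groups of 3 libraries: WT control, WT with TGF-β2, Nox4 KO control and Nox4 KO with TGF-β2. WT cells came from C57BL/6 mice and Nox4 KO cells from B6.129-Nox4tm1Kkr/J mice, which carry a targeted Nox4 allele in every cell, and the 2 lines descended from littermates and were then bred apart. Cells were starved for 24 h before stimulation, as the labels state for every sample, and the stimulated groups received TGF-β2 at 10 ng/ml for 24 h. The age of the mice is not stated, nor is whether the replicates came from separate animals, so that p-values measure the spread between these libraries, which may be technical.

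The VEGF ligands are secreted dimers that act on receptor tyrosine kinases, mostly on the endothelial cells that line blood and lymphatic vessels. VEGF-A drives the growth and leakiness of blood vessels, VEGF-C and VEGF-D act mainly on lymphatic vessels once they have been cleaved, and VEGF-B and placental growth factor bind the receptor encoded by Flt1. Neuropilins are co-receptors that bind VEGFs as well as class 3 semaphorins, and angiopoietins act on the separate receptor Tek. In skin, fibroblasts are a source of such ligands for the neighbouring vessels during wound repair.

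Library totals were 35118344 to 43796260 counts. All 10 fibroblast markers reached a mean of at least 1 RPKM (counts scaled by exon length in kilobases and by library total) in every group. Their sum was 6653 to 7353 RPKM in WT control and 5472 to 6474 RPKM in WT with TGF-β2, and 6734 to 8052 and 5833 to 6690.4 RPKM in Nox4 KO, without overlap in either genotype. Among them, Pdgfra had the largest fold change, from a mean of 39.9 to 3.79 RPKM in WT and from 27.7 to 3.31 RPKM in Nox4 KO. Col3a1 carried much of the fall of the sum, from 1060 to 451 RPKM in WT and from 847 to 422 RPKM in Nox4 KO. Vim alone went the other way, from 1212 to 1382 RPKM in WT and from 1325 to 1333 RPKM in Nox4 KO. The part of these shifts in the results was not tested. Of 12 endothelial markers, 9 were under 0.2 RPKM in every library, and the list summed to between 3.19 and 6.23 RPKM. Of 7 mural cell markers, 4 were under 0.5 RPKM in every library, among them Rgs5 at no more than 0.475 RPKM. The mural sum was 58.9 to 92.2 RPKM in WT control and 125 to 139.7 in WT with TGF-β2, and 72.7 to 87.1 in Nox4 KO control and 132 to 161 in Nox4 KO with TGF-β2. Mcam and Cspg4 carried this sum, while Notch3 went the other way, from a mean of 4.42 to 1.04 RPKM in WT and from 3.23 to 1.12 RPKM in Nox4 KO. Rgs5 was at 0.338 and 0.176 RPKM in WT and at 0.316 and 0.253 RPKM in Nox4 KO. The part of these markers in the results was not tested. Macrophage markers summed to 13.1 to 118 RPKM, and every stimulated library lay below its same-numbered control. The sums went from 44.7, 25.0 and 118 to 33.6, 20.3 and 82.0 RPKM in WT. In Nox4 KO they went from 92.0, 32.3 and 20.3 to 66.4, 23.2 and 13.1 RPKM. The part of this shift in the results was not tested either. Keratinocyte markers summed to at most 0.930 RPKM, and Schwann cell and melanocyte markers to at most 1.61 RPKM. In bulk RNA, fewer cells of a type and less RNA per cell cannot be told apart. Nox4 was counted in all Nox4 KO libraries, at 51.6% of the WT mean in control and 44.1% after TGF-β2. Counts over the whole gene do not separate the targeted exons from the others, so they do not check the genotype labels. Nox4 KO with TGF-β2 replicate 3 stood apart in its response. Over the 282 genes at least 2-fold higher with TGF-β2 in WT, its median log2 change from the Nox4 KO controls was 1.01, against 1.401 and 1.34 in the other 2. By a chi-square per gene that compares the counts of 2 libraries, it differed from these by 118 and 79.5, and they by 25.0. WT with TGF-β2 replicate 2 also stood apart, by 119 and 147 from replicates 1 and 3, which differed by 28.9. Without it, 1643 genes in place of 1117 passed as higher in WT.

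In WT fibroblasts, TGF-β2 went with more RNA for Vegfa, Vegfc, Pgf, Flt1 and Nrp2, and with less for Vegfb, Vegfd and Nrp1. All 8 members that could be tested passed at an adjusted p-value under 0.05, 5 higher and 3 lower, where 22.6% of the 10743 genes tested passed (10.4% higher and 12.2% lower). The WT groups did not overlap for any of the 8, as for 45.2% of all genes (20.3% higher and 24.9% lower). At least 2-fold changes were called for 4 members as higher and 1 as lower, against 2.62% and 5.09% of all genes. The median size of the log2 fold change was 1.35 over the 8 members and 0.26 over all genes tested. In Nox4 KO fibroblasts 6 of the 8 passed, 4 higher and 2 lower, where 30.0% of the 10809 genes tested passed (15.1% higher and 14.9% lower). The groups did not overlap for these 6, as for 48.5% of all genes (17.0% higher and 31.5% lower). All 6 were at least 2-fold, against 2.22% of genes higher and 4.58% lower, and the median sizes were 1.22 and 0.23. Angpt1 and Angpt2 stayed under the filter of a mean of 1 RPKM in at least 1 group. Pgf passed that filter only through the stimulated groups, so it had to differ between groups to be tested. It is included in all counts of members and in the median sizes, so its part in them is a description. With a block for the replicate number, which pairs the Nox4 KO libraries, 2729 genes were higher and 3113 lower in Nox4 KO, against 1637 and 1606 without it, and Flt1 passed as higher too. Scaling by library size alone shifted the Nox4 KO split to 1032 higher and 2122 lower, and upper-quartile scaling to 1216 and 1969, but no member changed direction under either.

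**Figure D1:**
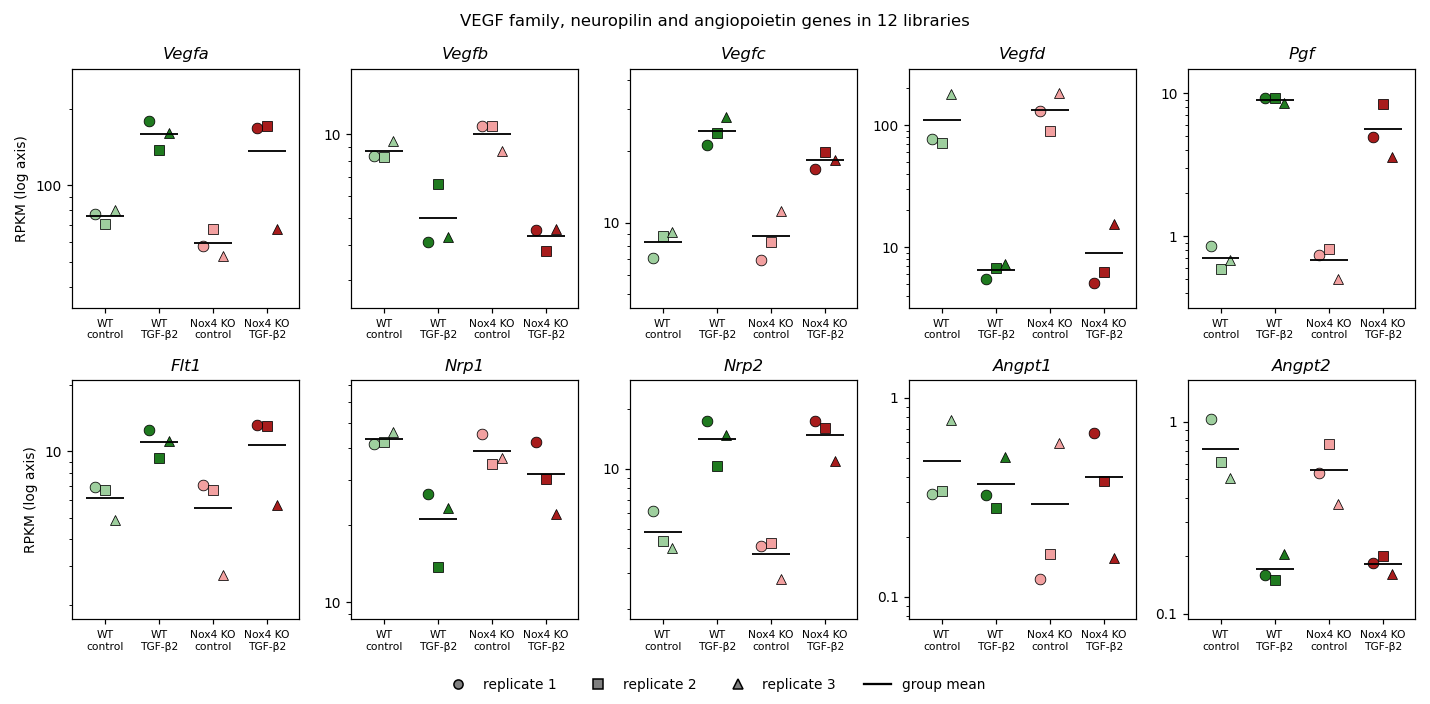
RPKM of the 10 genes (log axis, different range in each panel) in each of the 12 libraries, by group, with the mark showing the replicate number and the line the group mean. Vegfa, Vegfc, Pgf and Nrp2 sat higher and Vegfb and Vegfd lower in every stimulated library than in any control of the same genotype, while Nox4 KO with TGF-β2 replicate 3 lay close to the controls for Vegfa at 67.7 RPKM and for Flt1 at 5.72 RPKM.

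Vegfa, on chromosome 17 (46016993 to 46032369, minus strand, GRCm38), encodes the main vascular growth factor and was among the most abundant of the 10 genes. In WT it was at 77.2, 70.3 and 79.8 RPKM in the controls and at 179.8, 137 and 160.5 RPKM with TGF-β2. The groups lay far apart, and the log2 fold change was 1.11 (SE 0.13, adjusted p = 0.0026). Nox4 KO levels were 57.7, 67.5 and 52.7 RPKM in the controls and at 168, 172 and 67.7 RPKM with TGF-β2. There the first 2 stimulated libraries more than doubled while replicate 3 lay just above the highest control, at a log2 fold change of 1.28 (SE 0.36, adjusted p = 0.042). The call in Nox4 KO held in 1 of the 6 fits with a library left out, the one without that replicate 3 (1.61, adjusted p = 0.0032), and the adjusted p in the other 5 was between 0.092 and 0.14. Gene counts add up the 8 annotated protein-coding transcripts, so VEGF-A isoforms were not resolved.

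Pgf encodes placental growth factor, a ligand that binds the Flt1 receptor. In WT it went from 0.849, 0.593 and 0.680 RPKM in the controls to 9.28, 9.20 and 8.47 RPKM with TGF-β2. The stimulated libraries were alike, and the log2 fold change of 3.71 (SE 0.18) was a 13.1-fold rise. The Nox4 KO libraries went from 0.741, 0.818 and 0.503 RPKM to 4.94, 8.42 and 3.603 RPKM, again without overlap but with a wider spread. The log2 fold change was 3.12 (SE 0.39). Pgf entered the test only through the stimulated groups, where it is high, so both log2 fold changes are a description. The control levels rested on 38 to 71 reads per library.

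Vegfc, a ligand of lymphatic vessels, rose in both genotypes. In WT it was at 7.10, 8.79 and 9.09 RPKM in the controls and at 21.2, 23.9 and 27.9 RPKM with TGF-β2, a log2 fold change of 1.59 (SE 0.14, adjusted p = 0.00092). In Nox4 KO the controls were at 6.98, 8.26 and 11.2 RPKM and the stimulated libraries at 16.9, 19.8 and 18.4 RPKM, a log2 fold change of 1.15 (SE 0.17, adjusted p = 0.0070). Every stimulated library of either genotype lay above every control, and both calls held in all 6 fits with a library left out.

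Vegfd, on chromosome X (164373378 to 164402650, plus strand), encodes the other lymphatic ligand and fell the furthest of the 10 genes in both genotypes. In WT it dropped from 77.1, 71.4 and 180.4 RPKM in the controls to 5.52, 6.70 and 7.22 RPKM, at a log2 fold change of -4.03 (SE 0.39, adjusted p = 0.0013). Nox4 KO cells dropped from 130.1, 90.3 and 182 RPKM to 5.05, 6.21 and 15.4 RPKM, at a log2 fold change of -3.83 (SE 0.51, adjusted p = 0.0055). Stimulated WT cells kept 5.91% of the control mean and stimulated Nox4 KO cells 6.64%. The controls themselves varied 2.53-fold in WT and 2.01-fold in Nox4 KO. The highest Vegfd control of each genotype had macrophage marker sums of 118 RPKM (WT) and 20.3 RPKM (Nox4 KO), which were the highest and the lowest among the 6 control libraries.

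Vegfb, the remaining ligand gene, was low and fell modestly. In WT it was at 8.38, 8.29 and 9.49 RPKM in the controls and 4.10, 6.62 and 4.30 RPKM with TGF-β2, a log2 fold change of -0.76 (SE 0.20, adjusted p = 0.035). The Nox4 KO libraries were at 10.7, 10.7 and 8.72 RPKM in the controls and 4.53, 3.81 and 4.59 RPKM with TGF-β2, a log2 fold change of -1.14 (SE 0.14, adjusted p = 0.0048). Replicate 2 was the least changed of the stimulated WT libraries. Among the fits with a library left out, Vegfb in WT passed only without that library (-0.999, adjusted p = 0.0042). Leaving out any 1 of the other 5 gave an adjusted p between 0.075 and 0.0999. In Nox4 KO it passed in all 6 fits.

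The bases before the RefSeq transcription start are shown for 3 ligand genes with opposite responses, Vegfa and Vegfc, which rose, and Vegfd, which fell. The sequences are from RefSeq (GRCm38.p6), written along the gene's own strand. Those of Vegfa and Vegfc are the 250 bases that end just before the RefSeq start, and that of Vegfd is the first 106 of its 250 bases, which end just before the start of the gene in the GENCODE annotation. Capitals mark the SMAD box CAGAC, which reads GTCTG on the opposite strand, a short sequence bound by the SMAD factors of the TGF-β pathway, and the GC box GGGCGG, which reads CCGCCC on the opposite strand, bound by Sp1.
Vegfa, chr17:46032378-46032627, minus strand: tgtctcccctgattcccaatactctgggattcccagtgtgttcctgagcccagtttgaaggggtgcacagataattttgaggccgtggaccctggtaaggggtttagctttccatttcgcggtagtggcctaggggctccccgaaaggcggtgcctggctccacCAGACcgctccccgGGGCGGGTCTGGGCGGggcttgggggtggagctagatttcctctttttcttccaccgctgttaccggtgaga
Vegfc, chr8:54077282-54077531, plus strand: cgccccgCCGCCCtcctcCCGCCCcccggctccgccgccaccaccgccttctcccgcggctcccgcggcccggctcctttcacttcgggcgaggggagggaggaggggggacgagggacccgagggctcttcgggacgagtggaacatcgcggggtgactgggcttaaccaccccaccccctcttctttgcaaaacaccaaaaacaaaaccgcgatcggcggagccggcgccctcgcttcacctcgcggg
Vegfd, chrX:164373272-164373377, plus strand: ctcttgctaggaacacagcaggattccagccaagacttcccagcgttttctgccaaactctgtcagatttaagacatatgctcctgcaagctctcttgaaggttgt

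The Vegfa window held both motifs 2 times, with SMAD boxes starting at -86 and -66 and GC boxes at -72 and -62 from the transcription start, and the box at -66 shares 1 base with the GC box at -62. The Vegfc window held 2 GC boxes, at -243 and -232, and no SMAD box. All 250 bases of the Vegfd window held neither, and their GC content was 42.4% against 59.2% for Vegfa, 71.6% for Vegfc and a median of 52.4% over all 32851 windows. Of the 8 members with a window, Vegfa alone held a SMAD box, which 42.2% of all windows hold, and 7 held a GC box, which 32.7% of all windows hold. All 250 bases of the Pgf window and 32 bases of the Nrp2 window lie in annotated exons of these genes. None of the 8 held the hypoxia response element core ACGTG or its reverse form CACGT, found in 16.6% of all windows. These are matches of letters, binding was not measured, and bases further upstream were not searched.

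Compared per length, Vegfa and Vegfd together made up most of the ligand RNA in the controls, and Vegfa alone did so with TGF-β2. They were nearly level in 2 of the 3 WT controls, at a ratio of Vegfa to Vegfd of 1.0005 and 0.985, and Vegfd led in the remaining WT control and in all 3 Nox4 KO controls. In WT control, Vegfd made up 44.8% to 64.5% and Vegfa 28.6% to 45.2% of the summed RPKM of the 5 ligand genes. With TGF-β2, Vegfa made up 74.8% to 81.8% and Vegfd 2.51% to 3.64%. In Nox4 KO, Vegfa went from 20.7% to 38.0% in the controls to 61.7% to 84.3%, and Vegfd from 50.8% to 71.3% to between 2.53% and 14.1%. Vegfc made up 3.25% to 5.52% of the sum in the controls and 8.47% to 16.8% with TGF-β2, and Pgf went from at most 0.497% to between 2.47% and 5.004%. The sum itself overlapped between groups, at 159 to 279 RPKM in WT control and 184 to 219.9 RPKM in WT with TGF-β2.

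**Figure D2:**
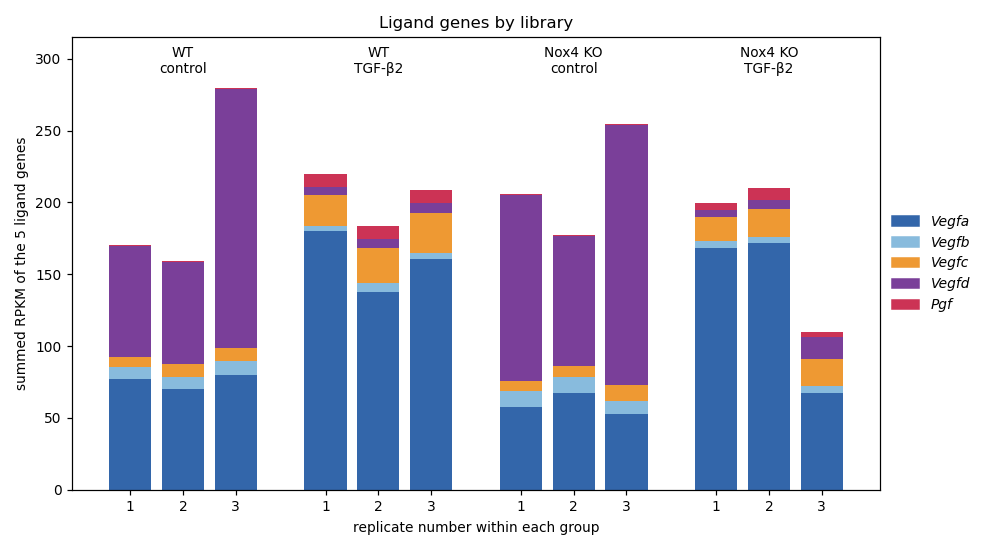
Summed RPKM of the 5 ligand genes (stacked bars starting at 0, coloured by gene) in each of the 12 libraries, 3 per group. Vegfd fills 44.8% or more of every control bar, Vegfa fills 61.7% or more of every stimulated bar, and the bar of Nox4 KO with TGF-β2 replicate 3 is the shortest at 109.7 RPKM.

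Flt1 encodes a receptor that binds VEGF-A, VEGF-B and placental growth factor, also made as a soluble decoy form that gene counts do not separate. In WT it was at 6.92, 6.68 and 4.86 RPKM in the controls and at 12.5, 9.33 and 11.1 RPKM with TGF-β2. It rose without overlap, at a log2 fold change of 0.88 (SE 0.19, adjusted p = 0.020), but missed the threshold without WT control replicate 2 (adjusted p = 0.052) or WT with TGF-β2 replicate 1 (adjusted p = 0.076), and in a fit of all 12 libraries (adjusted p = 0.10). In Nox4 KO it was at 7.05, 6.71 and 2.76 RPKM in the controls and at 13.2, 13.04 and 5.72 RPKM with TGF-β2. Replicate 3 was the lowest of its group both in control and with TGF-β2, the groups overlapped, and the log2 fold change of 1.03 (SE 0.47) had an adjusted p of 0.14. With the replicate block it was 1.06 (SE 0.051, adjusted p = 0.00021).

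The 2 neuropilins moved apart. Nrp2, the neuropilin linked to lymphatic vessels and VEGF-C, was at 6.12, 4.37 and 4.02 RPKM in WT control and at 17.4, 10.3 and 14.7 RPKM in WT with TGF-β2, a log2 fold change of 1.59 (SE 0.26, adjusted p = 0.0070). Nox4 KO levels went from 4.13, 4.24 and 2.82 RPKM to 17.4, 15.9 and 10.9 RPKM, a log2 fold change of 2.07 (SE 0.24, adjusted p = 0.0043). It rose in every stimulated library of both genotypes and held in all 6 fits with a library left out in each.

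Nrp1, the neuropilin that partners with VEGF-A receptors in blood vessels, was at 41.1, 42.1 and 45.9 RPKM in WT control and at 26.3, 13.7 and 23.3 RPKM in WT with TGF-β2. It fell by 0.98 on the log2 scale (SE 0.24, adjusted p = 0.029), and did not pass when any 1 of the 3 WT controls was left out (adjusted p from 0.085 to 0.099). In Nox4 KO it was at 45.0, 34.6 and 36.3 RPKM in the controls and 42.2, 30.1 and 22.1 RPKM with TGF-β2. These overlapped, with a log2 fold change of -0.21 (SE 0.24, adjusted p = 0.54). Each stimulated library lay below its same-numbered control, and with the replicate block the log2 fold change was -0.25 (SE 0.12, adjusted p = 0.13). Per length, Nrp1 exceeded Nrp2 by 6.73 to 11.4 times in WT control and by 1.32 to 1.59 times with TGF-β2. In Nox4 KO the ratio was 8.17 to 12.9 in control and 1.89 to 2.43 with TGF-β2, so that the ratios of control and stimulated libraries did not overlap in either genotype.

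Kdr and Flt4, the main signaling receptors for VEGF-A and for VEGF-C and VEGF-D, were near the lower limit of the filter and neither passed in either genotype. Kdr was at 1.64, 2.88 and 1.93 RPKM in WT control and 1.62, 1.87 and 1.48 RPKM in WT with TGF-β2. Flt4 was at 1.55, 1.95 and 0.753 RPKM in WT control and 1.91, 1.78 and 1.41 RPKM in WT with TGF-β2. Their Nox4 KO levels were between 2.20 and 4.62 RPKM for Kdr and between 1.46 and 2.28 RPKM for Flt4.

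Angpt1, which encodes an activating ligand of Tek, was at 0.328, 0.339 and 0.768 RPKM in WT control and 0.323, 0.280 and 0.505 RPKM in stimulated WT cells. In Nox4 KO it was at 0.123, 0.163 and 0.594 RPKM in control and 0.668, 0.381 and 0.156 RPKM with TGF-β2. The groups overlapped in both genotypes (two-sided exact permutation p = 0.5 and p = 0.6 on log2(CPM + 0.5)). Its exons overlap those of the antisense gene Gm17473 over 737 bases, and whether the counting used strand is not stated.

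Angpt2, the context-dependent ligand of the same receptor, was at 1.03, 0.619 and 0.509 RPKM in WT control and 0.159, 0.149 and 0.204 RPKM with TGF-β2. In Nox4 KO it was at 0.543, 0.767 and 0.371 RPKM and at 0.183, 0.199 and 0.160 RPKM. Every stimulated library lay below every control, on 20 to 31 reads against 48 to 129, and the two-sided exact permutation p was 0.1 in each genotype, the smallest that 3 libraries against 3 allow. In the fit without the RPKM filter the log2 fold change was -2.003 (SE 0.34, adjusted p = 0.0066) in WT and -1.52 (SE 0.33, adjusted p = 0.022) in Nox4 KO. Tek, also under the filter, was at 0.793, 1.04 and 1.02 RPKM in WT control and 0.151, 0.282 and 0.137 RPKM with TGF-β2. In Nox4 KO Tek was at 0.450 to 0.724 RPKM in control and 0.111 to 0.124 RPKM with TGF-β2. Its log2 fold change in the unfiltered fit was -2.24 (SE 0.31, adjusted p = 0.0027) in WT and -2.20 (SE 0.26, adjusted p = 0.0035) in Nox4 KO, while Tie1 had at most 11 reads in any library.

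The study's design asks whether the loss of Nox4 alters the cells or their response to TGF-β2. None of the members passed between the genotypes, in control or after TGF-β2, and none passed the interaction of genotype and stimulation. With edgeR no gene at all passed in these 3 tests (0% of 10767, 10439 and 10890 genes), while an unadjusted p under 0.05 was reached by 597 (5.54%), 337 (3.23%) and 292 (2.68%) genes. With DESeq2, 9 genes passed as higher and 19 as lower in control, 8 and 8 after TGF-β2, and 0 and 6 in the interaction, and no member was among them. In control, Vegfa lay lower in all 3 Nox4 KO libraries, with a log2 fold change of -0.39 (SE 0.11, unadjusted p = 0.012, adjusted p = 0.83). The control groups did not overlap for 13.6% of all genes tested, 10.9% higher and 2.74% lower in Nox4 KO. After TGF-β2, Vegfc (-0.38, SE 0.13, adjusted p = 0.84) and Pgf (-0.65, SE 0.30, adjusted p = 0.84) were lower in all 3 Nox4 KO libraries, where 10.1% of genes did not overlap, 4.16% higher and 5.92% lower.

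The difference between the genotypes' responses, Nox4 KO minus WT, was furthest from 0 for Nrp1, at 0.78 on the log2 scale (95% interval -0.05 to 1.61, unadjusted p = 0.063, adjusted p = 0.85). Although Nrp1 passed in WT and not in Nox4 KO, this difference itself did not pass. For Pgf it was -0.57 (-1.51 to 0.37), for Nrp2 0.49 (-0.34 to 1.32) and for Vegfc -0.42 (-0.93 to 0.08). It was -0.35 (-0.89 to 0.18) for Vegfb and 0.18 (-0.72 to 1.08) for Vegfa. Flt1 and Vegfd had the widest intervals, at 0.17 (-1.01 to 1.36) and 0.22 (-1.18 to 1.62). These intervals, from the fit without the replicate block, leave room for differences of more than 1 on the log2 scale for Vegfa, Vegfd, Pgf, Flt1, Nrp1 and Nrp2. With the block the SE was smaller, at 0.20 against 0.54 for Flt1, 0.18 against 0.38 for Nrp2 and 0.22 against 0.43 for Pgf. The blocked differences were 0.19, 0.50 and -0.62, and no member passed there (adjusted p from 0.54 to 0.996). A p that misses the threshold does not show that the genotypes respond alike.

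**Figure D3:**
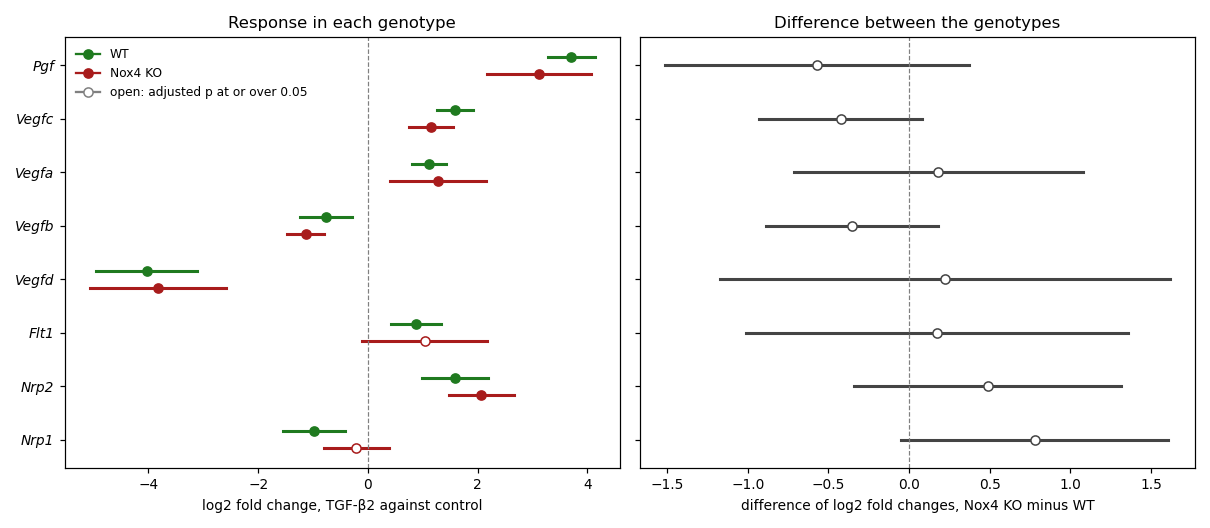
Left, log2 fold change of TGF-β2 against control for the 8 tested genes in WT (green) and Nox4 KO (red), with 95% intervals and open marks where the adjusted p is at or over 0.05; right, the difference of the responses, Nox4 KO minus WT, with 95% intervals. Open marks on the left are Flt1 and Nrp1 in Nox4 KO, and every interval on the right spans 0.

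**Figure D4:**
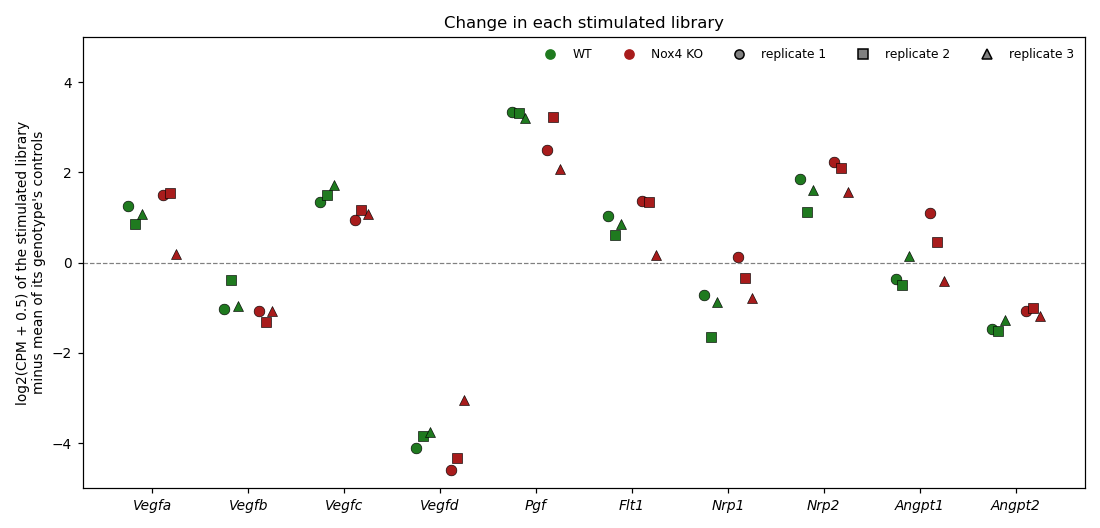
Change of each stimulated library from the mean of its own genotype's controls, on the log2(CPM + 0.5) scale, for the 10 genes in WT (green) and Nox4 KO (red), with the mark showing the replicate number. From this mean, Nox4 KO replicate 3 changed least among the Nox4 KO libraries for Vegfa (0.20), Flt1 (0.17), Pgf (2.07), Nrp2 (1.56) and Vegfd (-3.04). Its same-numbered control was the lowest Nox4 KO control for Vegfa, Flt1, Pgf and Nrp2. Against the same-numbered control, Flt1 went from 2.76 to 5.72 RPKM in replicate 3. It went from 7.05 to 13.2 RPKM in replicate 1 and from 6.71 to 13.04 RPKM in replicate 2. Nrp1 changed most in WT replicate 2 (-1.64).

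Lists of other genes of these pathways were read against the 22.6% of all genes that passed in WT and the 30.0% in Nox4 KO. Of the 11 tested plexins and class 3 semaphorins, the partners of the neuropilins, 1 was higher and 3 lower in WT, and 2 were higher and 3 lower in Nox4 KO, with medians of -0.44 and -0.07 against -0.00 and -0.01 over all genes. Sema3f, a repelling ligand for Nrp2, went from 6.99 to 1.66 RPKM in WT and from 10.2 to 2.35 RPKM in Nox4 KO, changes on the log2 scale of -2.03 and -2.04 (adjusted p = 0.00038 and 0.0087). The plexin gene Plxna4 rose in both genotypes (1.18 and 2.08). Plxna3 fell in Nox4 KO (-1.42), from 4.22 to 1.49 RPKM. In WT, Plxna3 was at 3.22 RPKM in control and 0.840 RPKM with TGF-β2. Plxna2 was at 2.79 and 0.747 RPKM in WT and at 2.58 and 0.947 RPKM in Nox4 KO. Plxna3 in WT (-1.90) and Plxna2 in both genotypes (-1.85 and -1.36) entered the test only through the controls, where they are high, so these log2 fold changes are a description.

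Of 18 genes of the hypoxia response, which include known regulators and co-targets of Vegfa, 1 was higher and 4 lower in WT and 0 were higher and 3 lower in Nox4 KO. The median log2 fold changes were -0.16 and -0.12. Adm, which encodes the vasodilating peptide adrenomedullin, fell from 76.7 to 11.9 RPKM in WT (-2.65, SE 0.19, adjusted p = 0.0006) and from 60.9 to 7.15 RPKM in Nox4 KO (-3.00, SE 0.37, adjusted p = 0.0048). Epas1, a hypoxia-inducible transcription factor, was at 3.28 ± 0.361 RPKM in WT control and 0.919 ± 0.189 RPKM in WT with TGF-β2 (SD, n = 3), and at 2.01 ± 0.704 and 0.646 ± 0.131 RPKM in Nox4 KO. It entered the test only through the controls, where it is high, so its log2 fold changes of -1.80 and -1.55 are a description. Vegfa and Adm moved in opposite directions in both genotypes. Ndrg1, the gene higher in WT (0.76, adjusted p = 0.047), moved with Vegfa, and in Nox4 KO it was at 0.61 (adjusted p = 0.13). The part of hypoxia signaling in the Vegfa change was not tested.

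Of 12 tested ligands from other angiogenic families, 4 were higher and 2 lower in WT, and 1 was higher and 1 lower in Nox4 KO. Pdgfb, a ligand that recruits pericytes, was at 0.366 ± 0.132 RPKM in WT control and 7.31 ± 0.943 RPKM in WT with TGF-β2 (SD, n = 3), and at 0.415 ± 0.173 and 5.26 ± 3.37 RPKM in Nox4 KO. Like Pgf, it entered the test only through the stimulated groups, where it is high, so its log2 fold changes of 4.35 and 3.74 are a description. In WT, Angptl4 (2.38) and Edn1 (1.13), which encodes a vasoconstrictor peptide, rose and Hgf (-1.59) fell. The Nox4 KO values of these genes were 2.17 for Angptl4 (adjusted p = 0.052), 0.78 for Edn1 (adjusted p = 0.21) and -1.32 for Hgf (adjusted p = 0.075). The differences between the genotypes' responses did not pass (adjusted p from 0.90 to 0.96). Of 8 tested angiogenesis inhibitors, 0 were higher and 2 lower in WT and 1 was higher and 2 lower in Nox4 KO. Among them, Adamts1, a protease that binds VEGF-A, fell from 92.9 to 11.8 RPKM in WT (-2.93, adjusted p = 0.0017) and from 74.1 to 11.2 RPKM in Nox4 KO (-2.63, adjusted p = 0.012).

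Of 11 tested genes for VEGF cleavage, release and matrix binding, 4 were higher and 2 lower in WT and 3 were higher and 2 lower in Nox4 KO. Ccbe1, the cofactor needed to cleave VEGF-C, was at 0.225 ± 0.083 RPKM in WT control and 1.93 ± 1.36 RPKM in WT with TGF-β2 (SD, n = 3), and at 0.145 ± 0.071 and 1.80 ± 1.21 RPKM in Nox4 KO. It too entered the test only through the stimulated groups, where it is high, so its log2 fold changes of 3.15 and 3.71 are a description. Mmp9, a matrix protease, rose (3.57 and 3.82) and Plau, the urokinase gene, fell (-2.03 and -1.92) in both genotypes. Pcsk5, a proprotein convertase, rose in WT (1.25, adjusted p = 0.0046), and in Nox4 KO its log2 fold change was 1.31 (1.74 to 4.06 RPKM, adjusted p = 0.051). No gene of these lists passed between the genotypes or in the interaction.

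Patterns nearest to those of Vegfa and Pgf were ranked by the Euclidean distance of centred log2 CPM over the 12 libraries, among 10890 genes. For Vegfa they were AA467197 (distance 0.73), Fosb (0.75), which encodes a subunit of the AP-1 transcription factor, and Cd80 (0.81), which encodes a T cell costimulator, against a median distance of 2.48. For Pgf they were Wnt10b (0.91), a Wnt ligand, Acsbg1 (1.17), an acyl-CoA synthetase, and Lif (1.198), a cytokine, against a median of 5.43. Lif went from 9.02 to 55.9 RPKM in WT and from 7.41 to 45.0 RPKM in Nox4 KO.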

How the data were processed

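RNA from 12 libraries was sequenced as single-end reads. The authors mapped them to GRCm38 with STAR (2.4 in the submitters' processing notes), dropped reads mapping to several places, counted reads on exons of protein-coding isoforms with featureCounts (1.4.6) and deposited the raw counts per gene, with no normalization. Whether strand was used is not stated. Groups and replicate numbers follow the labels.

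Gene lengths for RPKM came from the GENCODE annotation of GRCm38. Each of 4 pairs of groups was fitted on its own 6 libraries with edgeR 4.0.16 (R 4.3.3): genes with a mean of at least 1 RPKM in at least 1 group, TMM normalization, quasi-likelihood test, Benjamini-Hochberg adjustment over all genes tested. Genes passed at an adjusted p under 0.05 and were called at a fold of at least 2 as well. The interaction used all 12 libraries. For members under the filter, an exact permutation test (two-sided) was run on log2(CPM + 0.5). The procedure was tested on simulated data. Named are the members and, per pathway list and response, up to 4 called genes of largest change whose groups did not overlap, plus the 3 genes nearest in pattern to Vegfa and Pgf. Tek, Kdr, Flt4, Tie1, Ndrg1 and marker genes were named in addition, after their values were seen. The members and lists were chosen with earlier results of these data known.

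In Nox4 KO, control and stimulated libraries with the same number deviated alike from their group means (correlations 0.775, 0.683 and 0.748), so the numbers pair them; this rests on the data, since no label states it. Alternatives were DESeq2 1.42.0, 2 other normalizations, 2 other filters, all 12 libraries in 1 fit, a replicate block and leaving out each library. A count of 3 on an exon length of 2 kb equals 0.0427 RPKM at the lowest depth; this covers counting error only.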

Additional observations from a re-analysis of the deposited data

How the results depend on the processing

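Under DESeq2, both other normalizations, both other filters, all 12 libraries in 1 fit and the replicate block, the number of members that passed in each direction stayed within 1.5 times the reported number in every comparison. With libraries left out in turn, members passing as higher numbered 4 to 5 and as lower 1 to 3 in WT, and 3 to 4 and 2 to 2 in Nox4 KO. Flt1 in WT was lost in the fit of all 12 libraries (0.88), and Flt1 in Nox4 KO passed with DESeq2 (1.04) and with the block (1.06). The cause was not tested.

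Counts over all genes moved more. In WT 1780 genes were higher in the fit of all 12 libraries, and with libraries left out 520 to 1643 were higher and 712 to 1756 lower. In Nox4 KO 1032 were higher by library size only, 2729 higher and 3113 lower with the replicate block, and 572 to 1713 higher and 562 to 1798 lower with libraries left out. Between genotypes, 9 genes passed as higher and 19 as lower with DESeq2 in control, 8 and 8 after TGF-β2, and 6 as lower in the interaction. In control, 1 gene was higher in the fit of all 12 libraries and 0 to 1 lower with libraries left out, as were 0 to 1 higher after TGF-β2.

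Among fitted members, directions reversed only for differences between genotypes that had not passed. With the replicate block, the interaction of Vegfd was -0.0066. With libraries left out, log2 differences in control ranged from -0.15 to 0.18 for Vegfc, from -0.0071 to 0.78 for Vegfd and from -0.42 to 0.13 for Flt1. After TGF-β2 they ranged from -0.41 to 0.12 for Vegfa, from -0.29 to 0.031 for Vegfb, from -0.17 to 0.76 for Vegfd, from -0.21 to 0.28 for Flt1 and from -0.13 to 0.28 for Nrp2. In the interaction they ranged from -0.030 to 0.51 for Vegfa, from -0.43 to 0.50 for Vegfd and from -0.17 to 0.47 for Flt1. In WT same-numbered libraries correlated at 0.075, 0.435 and 0.531, and libraries of unlike number at -0.49 to 0.30. Replicates 2 and 3 matched their own number best, while control replicate 1 matched stimulated replicate 2 best (0.30). Whether the numbers pair the WT libraries thus stays undecided. The block gave 1319 genes higher and 1761 lower there. Apart from Flt1 in Nox4 KO, the block changed for no member whether it passed. Angpt1 and Angpt2, at 20 to 132 reads, and control Pgf are limited by depth.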
